A study of Mus musculus with 4 samples.

Results

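The enzymes of de novo fatty acid synthesis were taken as 10 genes given by symbol: the mitochondrial citrate carrier Slc25a1, the acetyl-CoA enzymes Acly and Acss2, the acetyl-CoA carboxylases Acaca and Acacb, the fatty acid synthase Fasn, the elongase Elovl6, the stearoyl-CoA desaturases Scd1 and Scd2, and the malic enzyme Me1. Ensembl identifiers of the deposited count table were mapped to symbols, and the 10 genes were found among 22298 listed. All 10 passed the filter on low counts and were tested, among 12888 genes tested. Brown adipose tissue (BAT) of C57BL/6 mouse fetuses (C57BL/6J in the study's methods), all labelled male, had been collected at E18.5, the last day of gestation, and measured by RNA-seq. In the control group (n = 2 libraries) the dams drank sterilised tap water, and in the fructose group (n = 2 libraries) they drank water with 20% (w/v) fructose throughout pregnancy. The libraries, called control 1, control 2, fructose 1 and fructose 2 here, held 19224529, 18542897, 22461298 and 23645147 counts. How many fetuses and litters stand behind a library was not given in the sources used here, so p-values measure the spread between these libraries, which may be technical.

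De novo lipogenesis starts when citrate leaves the mitochondrion and is cleaved to acetyl-CoA in the cytosol, which carboxylation turns into malonyl-CoA. Fatty acid synthase joins these units into palmitate at the expense of NADPH, and elongation and desaturation then give stearate, palmitoleate and oleate. Brown fat is known for carrying out synthesis and oxidation of fatty acids in the same cells, and the genes of the pathway are known targets of SREBP-1c and ChREBP.

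Before any comparison, the libraries were held against their labels. The Y-linked genes Ddx3y, Eif2s3y, Kdm5d and Uty summed to 422 counts in control 1 and 390 counts in control 2. In fructose 1 and fructose 2 they summed to 0 counts, which allows up to 3 counts in each library. The fructose libraries therefore went against their male label, and fetal sex and maternal fructose cannot be told apart in any difference given here. The share of counts from mitochondrially encoded genes was 5.89% in control 1, 6.49% in control 2, 10.8% in fructose 1 and 11.2% in fructose 2. Across all genes tested, which are not independent replicates, the log2 fold change correlated with gene length (Spearman's rho = 0.46 for merged exons, 0.50 for the longest transcript) and with GC content (rho = -0.50).

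Of the 10 genes, 8 were called higher in the fructose libraries (edgeR quasi-likelihood test, Benjamini-Hochberg adjusted p under 0.05 over all genes tested), against 15.5% of all genes tested. None was called lower by edgeR, where 10.7% of all genes were, and the count of lower members was also 0 at an unadjusted p under 0.05 and 0 by DESeq2. Both fructose libraries lay above both control libraries for 9 of the 10 genes, as they did for 33.4% of all genes tested. With the thresholds of the study, an unadjusted p under 0.05 and a fold change above 1.3, 8 were again higher by edgeR, against 17.6% of all genes. With the same thresholds by DESeq2, the tool of the study, 7 were higher and Fasn was not, against 10.8% of the genes it tested. Leaving the mitochondrially encoded and haemoglobin genes out of the table left 8 of the 10 called higher by edgeR, against 15.5% of the genes then tested, with a members' median log2 fold change of 0.61. Other fits called fewer of them higher, namely 5 with the length trend removed, 4 with both the length and GC trends removed, 4 without fructose 1 and 3 by DESeq2, as set out below. The median log2 fold change of the members was 0.61, within a range from -0.032 for Slc25a1 to 1.06 for Scd1. That median was 0.39 without fructose 1 and 0.87 without fructose 2. Over all genes tested the median was 0.0025, with the middle 50% of genes between -0.21 and 0.33. In bulk tissue, more cells of a type and more RNA per cell cannot be told apart.

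Together the 10 genes took 1.48% of all counts in control 1 and 1.06% in control 2. Their share was 2.54% in fructose 1 and 1.92% in fructose 2, so that both fructose libraries lay above both control libraries. Scd1 and Fasn alone held 67.1% of the members' counts in control 1, 59.5% in control 2, 71.2% in fructose 1 and 69.5% in fructose 2.

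The citrate carrier Slc25a1 moves citrate out of the mitochondrial matrix. Its level was 707 CPM (counts scaled to library size after TMM normalisation) in control 1, 546 CPM in control 2, 664 CPM in fructose 1 and 561 CPM in fructose 2. Both fructose libraries lay between the control libraries, so the groups overlapped. The mean was 627 ± 114 CPM (SD, n = 2) in controls and 613 ± 73.1 CPM (SD, n = 2) in the fructose group. The log2 fold change was -0.032 (SE 0.12), with 0 of 2 fructose libraries outside the control range, and did not pass the threshold (edgeR quasi-likelihood test, Benjamini-Hochberg adjusted p = 0.87). Its sign was not fixed by these data, since it ran from -0.21 without control 2 to 0.29 with the longest-transcript length and GC trends removed, and it was called in 0 of 17 alternative fits by edgeR or DESeq2.

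Acly encodes ATP citrate lyase, which cleaves the exported citrate to acetyl-CoA and oxaloacetate. Its level was 859 CPM in control 1, 882 CPM in control 2, 1571 CPM in fructose 1 and 1048 CPM in fructose 2. The control libraries lay close together, both fructose libraries were above them, and fructose 1 stood well above fructose 2. With means of 870.2 ± 16.5 CPM in controls and 1309.5 ± 369.7 CPM in the fructose group (SD, n = 2 each), Acly rose by a log2 fold change of 0.59 (SE 0.15; edgeR quasi-likelihood test, Benjamini-Hochberg adjusted p = 0.013), a call lost by DESeq2 and without fructose 1.

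Acss2 encodes the cytosolic and nuclear acetyl-CoA synthetase, which makes acetyl-CoA from acetate rather than citrate. It stood at 212 CPM in control 1, 178 CPM in control 2, 328 CPM in fructose 1 and 274 CPM in fructose 2. Both fructose libraries were above both controls, and the lower fructose library was 1.29 times the higher control library. From 195 ± 24.0 CPM in controls to 301 ± 38.0 CPM in the fructose group (SD, n = 2 each), it rose by a log2 fold change of 0.63 (SE 0.11; edgeR quasi-likelihood test, Benjamini-Hochberg adjusted p = 0.0022), a call lost with the length trend (0.32) or both trends (0.36) removed.

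Acaca encodes acetyl-CoA carboxylase 1, the cytosolic enzyme whose malonyl-CoA feeds fatty acid synthase. Counts came to 571 CPM in control 1, 582 CPM in control 2, 949.5 CPM in fructose 1 and 696 CPM in fructose 2. The controls were nearly equal, both fructose libraries were higher, and the distance between fructose 1 and fructose 2 exceeded that between fructose 2 and the controls. Acaca rose from 577 ± 8.17 CPM to 823 ± 179 CPM (SD, n = 2 each), a log2 fold change of 0.51 (SE 0.12; edgeR quasi-likelihood test, Benjamini-Hochberg adjusted p = 0.011). The call did not hold without fructose 1 (0.28) or with both trends removed (0.10), and the sign turned with the length trend alone removed (-0.0086). The call was also lost with the longest-transcript length trend (0.040) or that and the GC trend (0.11) removed.

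Acacb encodes acetyl-CoA carboxylase 2, which sits at the outer mitochondrial membrane, where malonyl-CoA inhibits the import of fatty acids. It measured 1101 CPM in control 1, 1143 CPM in control 2, 1302 CPM in fructose 1 and 1219 CPM in fructose 2. All 4 values were close, and the groups did not overlap, the lower fructose library being 1.07 times the higher control library. Its log2 fold change of 0.17 (SE 0.087), with 2 of 2 fructose libraries above both controls, did not pass the threshold (edgeR quasi-likelihood test, Benjamini-Hochberg adjusted p = 0.17).

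Within the carboxylase pair, scaled to counts per kilobase of merged exons, Acaca made up 22.6% in control 1, 22.3% in control 2, 29.2% in fructose 1 and 24.4% in fructose 2. The fructose mean was 4.29 percentage points above the control mean, the groups did not overlap, and fructose 1 and fructose 2 were further apart than fructose 2 was from the controls. These shares are given as values and were not tested.

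Fasn encodes the multifunctional synthase that builds palmitate. It was counted at 3738 CPM in control 1, 2734 CPM in control 2, 5929.5 CPM in fructose 1 and 3769.7 CPM in fructose 2. Fructose 1 stood apart as the highest library, whereas fructose 2 lay only 1.01 times above control 1. The mean was 3236 ± 710.1 CPM in controls and 4849.6 ± 1527 CPM in the fructose group (SD, n = 2 each). Fasn rose by a log2 fold change of 0.58 (SE 0.19) with 2 of 2 fructose libraries above both controls (edgeR quasi-likelihood test, Benjamini-Hochberg adjusted p = 0.038), the highest adjusted p of the 8 calls. It was not called by DESeq2, without fructose 1 (0.22), or with the length trend (0.25), the longest-transcript length trend (0.093) or both trends (0.49) removed. Nor was Fasn called with the longest-transcript length and GC trends removed (0.34).

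Elovl6 encodes the elongase that lengthens palmitate towards stearate. It had few reads, with 11.6 CPM in control 1, 15.6 CPM in control 2, 27.4 CPM in fructose 1 and 19.4 CPM in fructose 2, from 219, 282, 619 and 475 counts. Both fructose libraries were above both control libraries, and unlike the other called genes with a wide control spread, Elovl6 was higher in control 2 than in control 1. It rose from 13.6 ± 2.89 CPM to 23.4 ± 5.64 CPM (SD, n = 2 each), a log2 fold change of 0.78 (SE 0.18; edgeR quasi-likelihood test, Benjamini-Hochberg adjusted p = 0.0094), and lost its call without fructose 1 (0.52) and with the GC trend (0.52), both trends (0.51), the longest-transcript length trend (0.52) or that and the GC trend (0.38) removed.

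Scd1 encodes the main stearoyl-CoA desaturase of adipose tissue, which places the double bond of palmitoleate and oleate. It was counted at 6361 CPM in control 1, 3747 CPM in control 2, 11994 CPM in fructose 1 and 9089.5 CPM in fructose 2. Both fructose libraries were above both controls, with the lower of them at 1.43 times the higher control. Control 2 was the lowest library, and control 1 was 1.70 times control 2. From 5054 ± 1849 CPM to 10542 ± 2054 CPM (SD, n = 2 each), Scd1 rose by a log2 fold change of 1.06 (SE 0.20; edgeR quasi-likelihood test, Benjamini-Hochberg adjusted p = 0.0036), the largest fold change of the 10 genes. Without control 2, Elovl6 (1.01) exceeded Scd1 (0.73), and by DESeq2 Scd1 was not called.

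Scd2, the desaturase isoform best known from brain and from perinatal tissues, was counted at 1304 CPM in control 1, 933 CPM in control 2, 2117 CPM in fructose 1 and 1589.8 CPM in fructose 2. The libraries kept the order seen for Scd1, with control 2 lowest, fructose 1 highest and no overlap. Scd2 rose from 1119 ± 263 CPM to 1853 ± 373 CPM (SD, n = 2 each), a log2 fold change of 0.73 (SE 0.16; edgeR quasi-likelihood test, Benjamini-Hochberg adjusted p = 0.0065), and lost its call by DESeq2 (0.71) and with the longest-transcript length and GC trends removed (0.54).

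Per kilobase of merged exons, Scd1 made up 84.5% of the Scd1 and Scd2 counts in control 1, 81.8% in control 2, 86.4% in fructose 1 and 86.5% in fructose 2. The groups did not overlap, and the fructose mean was 3.28 percentage points above the control mean. Acly made up 88.6% and 90.5% of the Acly and Acss2 counts in the controls and 90.2% and 88.0% in the fructose libraries, so the shares within the acetyl-CoA pair overlapped.

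Me1 encodes cytosolic malic enzyme, which returns pyruvate and yields NADPH for the synthase. Its counts gave 181 CPM in control 1, 131 CPM in control 2, 302 CPM in fructose 1 and 226 CPM in fructose 2. The order of the libraries was again control 2, control 1, fructose 2 and fructose 1 from low to high, without overlap. Me1 rose from 156 ± 35.1 CPM to 264 ± 53.3 CPM (SD, n = 2 each), a log2 fold change of 0.76 (SE 0.15; edgeR quasi-likelihood test, Benjamini-Hochberg adjusted p = 0.0044), with the call lost by DESeq2 alone.

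**Figure D1:**
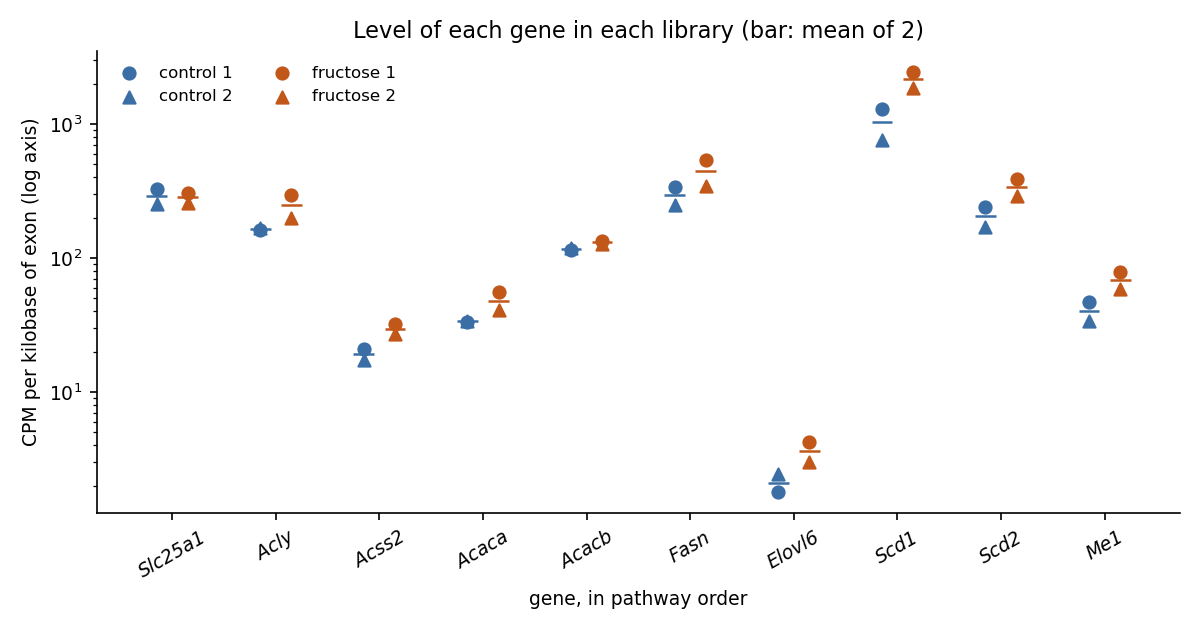
Level of each of the 10 genes in CPM per kilobase of merged exons on a log axis, in the 2 control and 2 fructose libraries, with short lines at the group means. Scd1 is highest in every library and Elovl6 lowest, and only for Slc25a1 do the fructose libraries fall within the control range.

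The levels of the genes were set side by side only per kilobase of merged exons. In controls the mean level per kilobase ran from Scd1 at 1033 CPM through Fasn at 296, Slc25a1 at 289.5, Scd2 at 205, Acly at 165 and Acacb at 116 CPM. The lower levels per kilobase in controls were 40.5 CPM for Me1, 33.8 for Acaca, 19.2 for Acss2 and 2.11 for Elovl6. Among neighbours in this order, the control libraries of Fasn and Slc25a1 overlapped, as did those of Me1 and Acaca. In the fructose group the mean level per kilobase was 2155 CPM for Scd1, 443 for Fasn, 339 for Scd2, 283 for Slc25a1 and 248 for Acly, with the remaining genes in the same order as in controls. Scd2 stood above Slc25a1 there and below it in controls, but the fructose libraries of Fasn and Scd2, of Scd2 and Slc25a1, and of Slc25a1 and Acly overlapped. On the length of the longest transcript this change of order was absent, with Slc25a1 above Scd2 in both groups (2nd and 4th in controls, 3rd and 4th in the fructose group), and Me1 was 9th in both.

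The spread between fructose 1 and fructose 2 was then set against the difference between the groups. All 10 genes were higher in fructose 1 than in fructose 2, while 49.5% of all genes tested and counted in both were. The median log2 ratio of fructose 1 to fructose 2 was 0.41 over the members and -0.0020 over all genes. Fasn had the widest fructose spread, with a log2 ratio of 0.65 (95% exact binomial interval 0.64 to 0.67, counting error only), which exceeded its difference between groups of 0.58. Acly followed with a log2 ratio of 0.58 (0.56 to 0.61), just under its group difference of 0.59. For Elovl6 the log2 ratio was 0.50 (0.32 to 0.67), and for Acaca 0.45 (0.42 to 0.48). Me1, Scd2 and Scd1 were similar to each other in this respect, with log2 ratios of 0.42, 0.41 and 0.40, each below its group difference. The smaller fructose spreads were those of Acss2 at 0.26, Slc25a1 at 0.24 and Acacb at 0.095.

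In the control group 6 of the 10 genes were higher in control 1 than in control 2, as were 51.6% of all genes counted in both. The median log2 ratio there was 0.31 over the members and 0.0092 over all genes. Scd1 had the widest control spread, with a log2 ratio of 0.76 (95% exact binomial interval 0.75 to 0.78), wider than its spread between the fructose libraries. Scd2 with 0.48, Me1 with 0.46, Fasn with 0.45, Slc25a1 with 0.37 and Acss2 with 0.25 were also higher in control 1. Elovl6 went the other way with a log2 ratio of -0.44 (-0.70 to -0.18), and Acly, Acaca and Acacb differed little, at -0.039, -0.029 and -0.054. The 10 genes thus did not share 1 pattern of spread. Acly and Acaca varied between the fructose libraries and hardly between the controls. Scd1, Scd2, Me1, Fasn, Elovl6, Slc25a1 and Acss2 varied in both groups, and Acacb varied little in either.

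**Figure D2:**
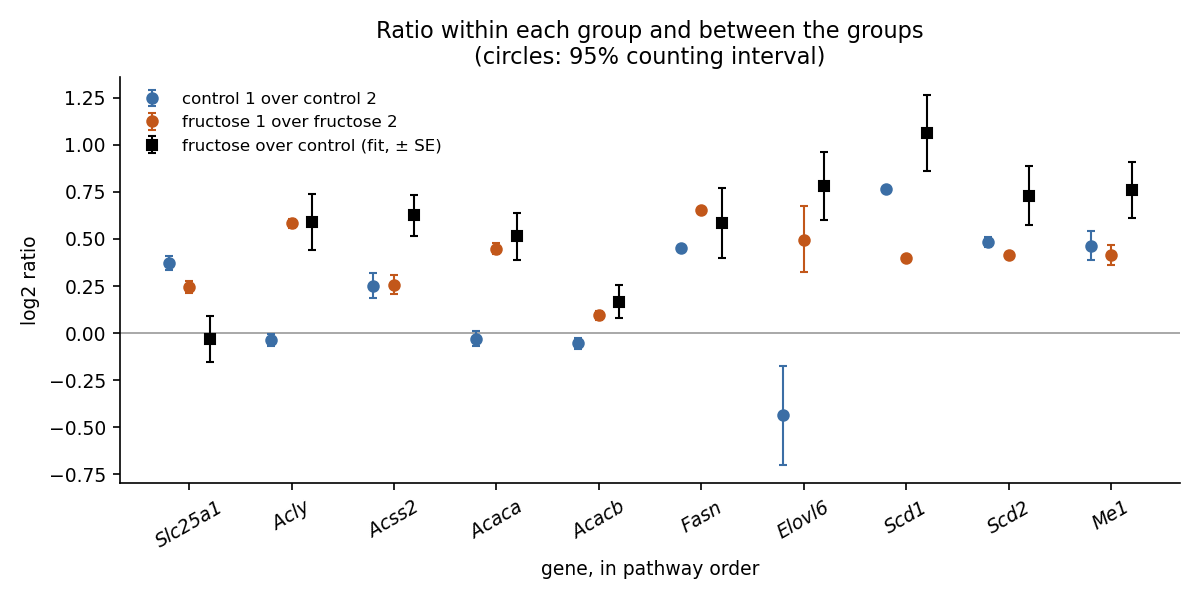
Log2 ratio of replicate 1 to replicate 2 for each of the 10 genes, in control and fructose libraries, with 95% exact binomial intervals that cover counting error only, beside the log2 fold change between the groups. All 10 fructose ratios are above 0, and that of Fasn (0.65) exceeds its fold change (0.58).

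Without fructose 1, 4 of the 10 genes were called higher (Acss2, Scd1, Scd2 and Me1), against 11.6% of all genes tested. Fasn then had a log2 fold change of 0.22, and over all 17 alternative fits its log2 fold change ran from 0.093 to 0.88. The highest adjusted p of Fasn was 0.78 (edgeR quasi-likelihood test, longest-transcript length trend removed). The log2 fold change of Fasn was 0.38 without control 2 and 0.88 without fructose 2, so single libraries moved it by more than its standard error. Acly had a log2 fold change of 0.27 without fructose 1, the lowest of the alternative fits, where the highest was 0.85. Acaca had 0.28 (range over the alternative fits -0.0086 to 0.72) and Elovl6 0.52 (range 0.38 to 1.01). Scd1 kept a log2 fold change of 0.85 without fructose 1, Me1 of 0.54, Scd2 of 0.51 and Acss2 of 0.50, all past the threshold of the edgeR test.

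By DESeq2, 3 of the 10 genes were called higher (Acss2, Acaca and Elovl6), against 10.4% of all genes tested by it. Scd1 had a DESeq2 adjusted p of 0.062, the highest over the 17 alternative fits. The DESeq2 adjusted p was 0.065 for Me1 and 0.090 for Scd2, for each gene again the highest over the alternative fits. The fold changes of these genes hardly moved with the tool, at 1.05 for Scd1, 0.75 for Me1 and 0.71 for Scd2 on the log2 scale. Acly and Fasn lost their calls as well, with DESeq2 adjusted p of 0.15 and 0.33, at log2 fold changes of 0.57 each.

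Length and base composition differed among the members. By longest transcript, Fasn with 10050 bases was longer than 97.5% of the genes tested, Acaca with 9513 bases than 96.9% and Acacb with 8788 bases than 95.9%. Slc25a1 lay at the other end, with 1666 bases, longer than 13.7% of the genes tested, and its GC content of 59.1% was above that of 93.6% of them. Elovl6 had the lowest GC content of the members, 44.0%, above that of 19.7% of the genes tested.

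With the trends of each library's counts on length and GC content removed, 4 of the 10 genes were called higher (Acly, Scd1, Scd2 and Me1), against 5.50% of all genes tested. Scd1 then had a log2 fold change of 0.97, Scd2 of 0.68, Me1 of 0.66 and Acly of 0.63. Acaca came to 0.10 (edgeR quasi-likelihood test, adjusted p = 0.70), and with the length trend alone removed to -0.0086, so its value depended on how length was treated. Fasn had a log2 fold change of 0.49 with both trends removed (edgeR adjusted p = 0.11), and of 0.093 with the trend on longest transcript length removed. Acss2 had 0.36 with both trends removed (edgeR adjusted p = 0.053, its highest over the alternatives) and Elovl6 0.51 (edgeR adjusted p = 0.11). Acacb passed the threshold with the GC trend alone removed, at a log2 fold change of 0.32 (edgeR adjusted p = 0.026, range 0.026 to 0.75), and had -0.28 with the longest-transcript length trend removed. Over the 17 alternative fits, Scd1 and Me1 were called in 16, Acly, Acss2 and Scd2 in 15, Elovl6 in 12, and Acaca and Fasn in 11.

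**Figure D3:**
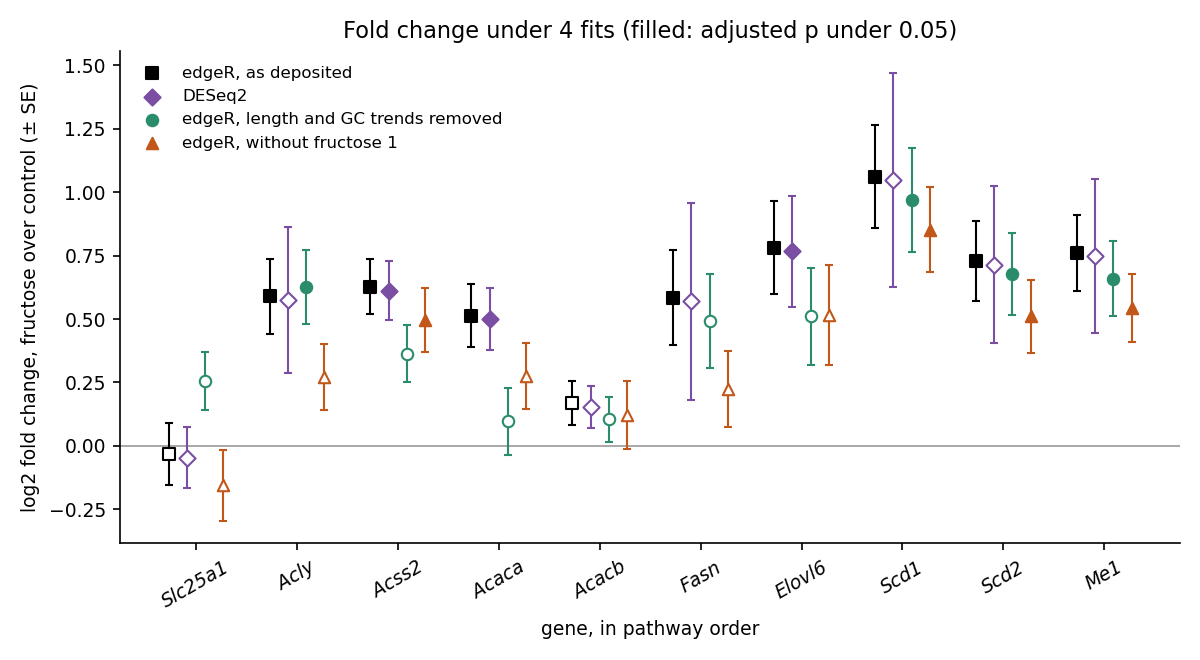
Log2 fold change of the 10 genes, fructose over control, with its SE, in the edgeR fit with no trend removed, by DESeq2, with length and GC trends removed, and without fructose 1, with filled points for an adjusted p under 0.05. Scd1, Scd2 and Me1 are filled in all of these but DESeq2, and Slc25a1 and Acacb in 0.

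Some members share sequence with other genes, and the counting tool and its treatment of shared reads were not given in the sources used here. Of the distinct 50-base words in annotated transcripts, 30.4% of those of Acaca also occur in other genes, with 5016 of them in the pseudogene Gm5182. For Me1 the share was 28.3%, with 804 words in Gm7049 and 659 in Gm48795, and none of these 3 genes is listed in the count table. The counts of Acaca and Me1 are uncertain for that reason, and the number of reads concerned was not measured. Scd1 shared 4.56% and Scd2 3.97% of their words with other genes, including 145 words with each other. Scd3, the nearest relative of Scd1 by this measure, had 4, 3, 4 and 7 counts in control 1, control 2, fructose 1 and fructose 2. Acss2 shared 6.13%, with 252 words in Gss on the opposite strand, which had 1142 and 1301 counts in the controls and 1141 and 1256 in the fructose libraries. Without a stated strand setting, reads from the overlap of Acss2 and Gss cannot be told apart. Elovl6 shared 3.98% of its words, and Slc25a1, Acly, Acacb and Fasn shared 0.

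The other genes of the pathway were taken from 8 lists holding 70 genes, of which 65 were tested. In all, 12 of them were called higher and 13 lower, against 15.5% and 10.7% of all genes tested. With both trends removed, 6 were called higher and 6 lower, against 5.50% and 5.96% of all genes tested. Unless stated otherwise, the calls on these lists rest on the edgeR quasi-likelihood test with Benjamini-Hochberg adjusted p under 0.05.

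Of 6 genes that supply citrate and mitochondrial acetyl-CoA, 0 were called by edgeR in either direction, with 0 higher and 1 lower at an unadjusted p under 0.05 and 0 higher and 1 lower by DESeq2. Their median log2 fold change was -0.14. Cs, citrate synthase and the most abundant of them per kilobase, was at 5638 and 6185 CPM in the controls and 5099 and 5006 CPM in the fructose libraries. Both fructose libraries lay below both controls, at a log2 fold change of -0.23 that did not pass the threshold (edgeR adjusted p = 0.10). Cs was called lower with the length trend removed, without control 1 and by DESeq2, and its adjusted p by edgeR or DESeq2 ran from 0.0043 to 0.38 over the alternative fits. Mpc2, named after its values were seen, was called lower with both trends removed (log2 fold change -0.52).

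Beside the rise of Me1, 1 of 6 other genes of NADPH supply was called lower, and 0 were called higher by edgeR, 0 at an unadjusted p under 0.05 and 0 by DESeq2. Pgls, the lactonase of the pentose phosphate pathway, fell from 357 and 362 CPM to 232 and 214 CPM (log2 fold change -0.69, edgeR adjusted p = 0.00036). Pgd, the most abundant of them per kilobase, was at 873 and 812 CPM in controls and 995 and 782 CPM in the fructose libraries, which overlapped. Removing both trends left Pgls called (-0.51), and Me3, named after its values were seen, was then called lower as well (-0.72, against -0.30 and no call before).

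Among 11 partners of the carboxylases and the synthase, 2 were called higher and 2 lower. Prkaa2 and Prkaa1 encode the catalytic subunits of AMPK, the kinase that phosphorylates and inhibits both carboxylases. Prkaa2 rose from 5.28 and 5.71 CPM to 11.7 and 11.6 CPM (log2 fold change 1.09, edgeR adjusted p = 0.0010). Removing both trends left a log2 fold change of 0.55 for Prkaa2, and removing the longest-transcript length and GC trends ended its call (0.37). Prkaa1 rose from 20.1 and 22.0 CPM to 29.3 and 28.0 CPM (log2 fold change 0.44, edgeR adjusted p = 0.012), but its log2 fold change was -0.069 with the GC trend removed, and the call was also lost without fructose 1 (0.41). Mlycd, whose product degrades malonyl-CoA, fell by 0.32 and the AMPK subunit gene Prkag1 fell by 0.27 on the log2 scale. Both calls were lost with library size only, with the study's thresholds, without control 2 or fructose 2, and with either trend removed, and that of Prkag1 also without fructose 1. The study's thresholds left the values as they were, and neither reached a fold change of 1.3 in either direction. With library size only they were -0.26 for Mlycd and -0.21 for Prkag1, and without control 2 -0.24 and -0.17. Removing the length trend gave -0.22 for Mlycd and -0.12 for Prkag1, and removing the GC trend -0.12 and -0.19. Mlycd had -0.22 without fructose 2. For Prkag1 the log2 fold change stayed at -0.28 without fructose 2 and -0.26 without fructose 1, so the size of the change was kept there. The log2 fold changes were -0.072 for Mlycd and -0.063 for Prkag1 with both trends removed. Thrsp, the most abundant of the partners per kilobase and a known companion of lipogenic genes, was at 2298 and 2288 CPM in controls and 2555 and 2058 CPM in the fructose libraries. The fructose libraries of Thrsp lay on either side of the controls, at a log2 fold change of 0.0085 (edgeR adjusted p = 0.96).

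The elongation cycle beside Elovl6 held 12 genes, of which 10 were tested and 2 were called higher, with 0 lower by edgeR, 0 at an unadjusted p under 0.05 and 0 by DESeq2. Elovl3, the elongase known for its induction in brown fat, rose from 28.1 and 19.9 CPM to 50.5 and 32.5 CPM (log2 fold change 0.79, edgeR adjusted p = 0.012). Its call was lost by DESeq2 (log2 fold change 0.78), and without fructose 1 the log2 fold change was 0.44. Elovl5 rose from 61.9 and 60.9 CPM to 83.1 and 78.1 CPM (log2 fold change 0.39, edgeR adjusted p = 0.0059), a call lost with the GC trend removed (0.17). Like Elovl6, both were higher in fructose 1 than in fructose 2. Hsd17b12, the ketoacyl reductase of the cycle and its most abundant gene per kilobase, had a log2 fold change of 0.020 that did not pass the threshold.

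Of 8 other desaturases and electron donors 6 were tested, and Cyb5b was called higher, with 0 lower by edgeR, 1 lower at an unadjusted p under 0.05 and 0 by DESeq2. Cyb5b, a cytochrome b5 of the outer mitochondrial membrane, rose from 177 and 164 CPM to 262 and 204 CPM (log2 fold change 0.45, edgeR adjusted p = 0.012). That call was lost with the GC trend (0.29) or both trends (0.35) removed and without fructose 1 (0.26). Cyb5a, named after its values were seen, went the other way, from 106 and 89.6 CPM to 85.3 and 73.8 CPM. Its log2 fold change of -0.30 did not pass the threshold (edgeR adjusted p = 0.0505) and was -0.19 with both trends removed. Fads1, Fads2 and Fads3, which desaturate or resemble desaturases of polyunsaturated fatty acids and were named after their values were seen, had log2 fold changes of 0.24, 0.031 and 0.031 that did not pass the threshold.

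Acyl-CoA synthetases activate the fatty acids made, and of 4 tested of 5 listed, 3 were called higher, with Acsl6 at 0 counts in all libraries. None was called lower by edgeR, with 0 lower at an unadjusted p under 0.05 and 0 by DESeq2. Acsl4 rose by a log2 fold change of 0.98, Acsl3 by 0.64 and Acsl5 by 0.44. Acsl5 alone kept its call with both trends removed (0.36), while Acsl4 had 0.46 and Acsl3 0.42. The call of Acsl5 was lost with the GC trend alone (0.34) or the longest-transcript length and GC trends (0.34) removed. Leaving out single libraries ended the call of Acsl5 without fructose 1 (0.26), of Acsl4 without fructose 2 (0.87) and of Acsl3 without control 2 (0.33) or fructose 2 (0.51). Acsl1, the most abundant per kilobase, was at 1681 and 1739 CPM in controls and 2006 and 1916 CPM in the fructose libraries, a log2 fold change of 0.20 that did not pass the threshold. It was called higher with library size only (0.26), and the value was -0.18 with both trends removed.

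In the separate mitochondrial route of fatty acid synthesis, 5 of 7 genes were called lower and 1 higher, with a median log2 fold change of -0.36. Hsd17b8 fell by 0.45, Mcat by 0.44, Mecr by 0.38 and Ndufab1, the most abundant per kilobase, by 0.36 on the log2 scale, while Oxsm rose by 0.41. Acsf3, named after its values were seen, fell by 0.33. Removing both trends left Ndufab1 called (-0.59), while Hsd17b8, Mcat, Mecr, Acsf3 and Oxsm lost theirs. Cbr4, named after its values were seen, had a log2 fold change of -0.029 and was then called lower (-0.39), and the median of the 7 was -0.17. Without fructose 2, the calls of Mcat (-0.36), Mecr (-0.36), Ndufab1 (-0.31) and Oxsm (0.42) were lost, and that of Oxsm also without fructose 1 (0.41) and by DESeq2 (0.39). The difference between the mitochondrial and the cytosolic genes was not tested.

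Of 15 regulators of lipogenic genes, 3 were called higher and 5 lower. Srebf1, which encodes SREBP-1 and was the most abundant of them per kilobase, fell from 1733 and 1437 CPM to 1189.5 and 1163 CPM (log2 fold change -0.43, edgeR adjusted p = 0.0102). Mbtps2 rose by 0.81, Insig1 by 0.65 and Nr1h2, which encodes LXR beta, fell by 0.46 on the log2 scale. Insig1, itself a known sterol-regulated gene, was at 189 and 126 CPM in controls and 268 and 227 CPM in the fructose libraries. Acss2, Fasn, Scd1, Scd2 and Me1 had the same order of libraries, and the share of all genes with it is not given here. Mlxipl, which encodes ChREBP and was named after its values were seen, rose from 100.5 and 112 CPM to 158 and 126 CPM, a log2 fold change of 0.42 (edgeR adjusted p = 0.015). Insig1 (0.69) and Mlxipl (0.50) kept their calls with both trends removed, and Mbtps2 lost its call (0.17). The 5 lower genes, which were Nr1h2 (-0.23), Srebf1 (-0.32), Usf2, Scap and Nr1h3, all lost theirs, and Mbtps1, not called before, was called lower (-0.33), the last 4 named after their values were seen. By DESeq2, Insig1 (0.64) and Mbtps2 (0.80) were not called, and Mbtps2 lost its call also without fructose 1 (0.86) or fructose 2 (0.76). Without control 2 the log2 fold change of Insig1 was 0.39.

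**Figure D4:**
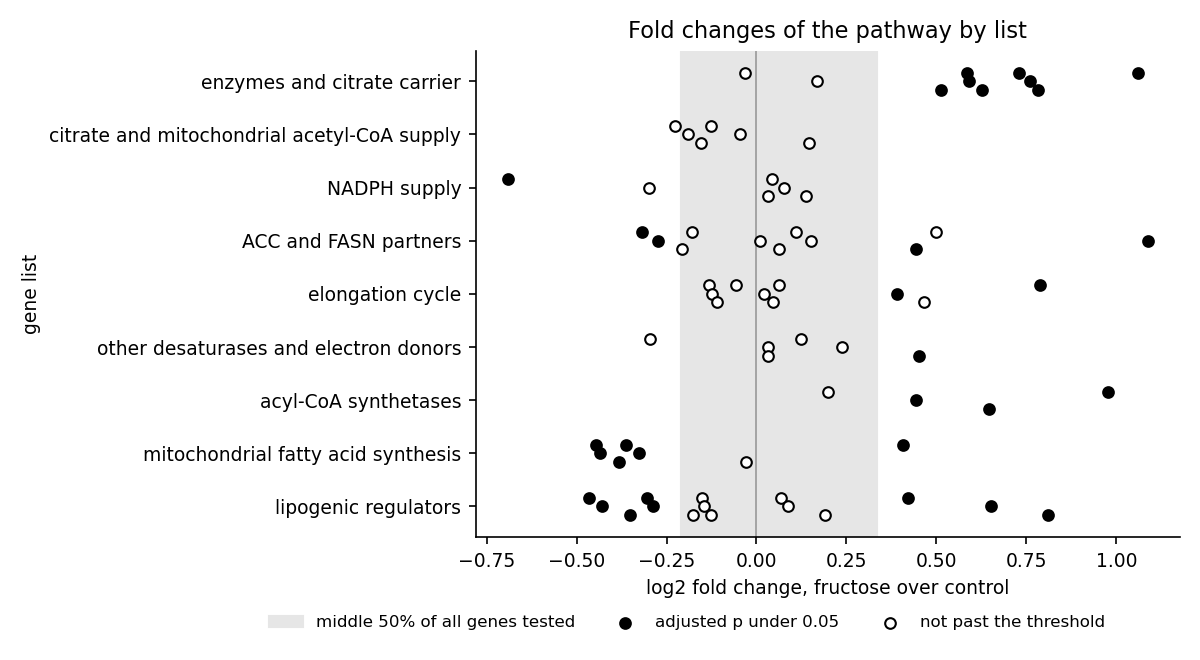
Log2 fold change, fructose over control, of the 10 genes and of the tested genes of 8 further lists, with filled points for an adjusted p under 0.05 and a grey band for the middle 50% of all genes tested (-0.21 to 0.33). Of the 10 genes 8 are filled and to the right of the band, and 5 of the 7 genes of mitochondrial fatty acid synthesis are filled and to its left.

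Markers of the tissue and of other cells were read beside these results. The tissue label was borne by Ucp1, at 9705 and 12425 CPM in controls and 11004 and 9606 CPM in the fructose libraries, with overlapping groups. Of 10 brown adipocyte markers 2 were called higher and 2 lower, and of 12 markers of adipocytes in general 2 were called higher and 5 lower. Their median log2 fold changes were 0.14 and -0.14, against 0.61 for the 10 enzyme genes (0.39 to 0.87 when 1 library was left out). Marker genes named here beside the most abundant of each list were chosen after their values were seen. Ppargc1a and Ebf2 were the 2 higher brown adipocyte markers, at log2 fold changes of 1.16 and 0.55, and kept their calls with both trends removed (0.72 and 0.30). With both trends removed the 2 lower brown adipocyte markers, Cox7a1 and Cox8b, lost their calls, and Cidea was called higher (0.34, against -0.0021 before). Of the 12 general markers the 5 lower ones, Adipoq, Cebpa, Lipe, Pnpla2 and Cidec, then lost their calls. The 2 higher ones were Cd36, which lost its call (0.13, against 0.58 before), and Lpl, which was still called (0.31, against 0.75 before). Fabp4, the most abundant per kilobase, was then called lower (-0.40, against -0.13 and no call before). All 13 skeletal muscle markers were called higher, with summed levels of 304 and 406 CPM in controls and 897 and 701 CPM in the fructose libraries, and Acta1 as the most abundant. Of 7 erythroid markers 5 were called lower, with summed levels of 19204 and 15294 CPM in controls and 11766 and 12141 CPM in the fructose libraries and Hbb-bs as the most abundant. All 13 muscle markers stayed called with both trends removed, while the 5 erythroid markers lost their calls and the erythroid median went from -0.52 to -0.20. The part of muscle and blood cells in the enzyme results was not tested.

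The 10 hepatocyte markers summed to 74 and 36 counts in controls and 82 and 83 counts in the fructose libraries, with Apoc3 as the most abundant and Ttr, Serpina1a, Fgb, Fga and Afp at 0. The 8 epidermis markers summed to 84 and 48 counts in controls and 53 and 130 counts in the fructose libraries, with Krt10 as the most abundant and Krt14 at 0. Of 8 macrophage markers, with Lyz2 as the most abundant, 1 was called higher and 2 lower, calls lost by DESeq2 and with both trends removed, at summed levels of 218, 164, 162 and 172 CPM in control 1, control 2, fructose 1 and fructose 2. Of 8 endothelial markers, with Cldn5 as the most abundant, 2 were called lower, at summed levels of 1689, 1645.5, 1476 and 1553 CPM. Both, Cldn5 and Egfl7, lost their calls when the trends were removed (-0.14 and -0.078), Emcn, named after its values were seen, was called lower instead (-0.54), and DESeq2 called 1 of the 8 lower. The 9 Schwann cell markers, with Pmp22 as the most abundant, summed to 108, 101, 113 and 105 CPM in the same order, and of 7 tested 0 were called by edgeR, 0 at an unadjusted p under 0.05 and 0 by DESeq2. The 8 fibroblast markers, with Col3a1 as the most abundant, summed to 5065, 4354, 4924 and 4989.8 CPM, and 0 were called by edgeR or DESeq2, with 1 higher at an unadjusted p under 0.05. Dcn, named after its values were seen, was called lower by edgeR when the trends were removed (-0.49).

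The promoters of the members, called or not, were then read for short motifs known from lipogenic genes. The RefSeq promoter table (GRCm38.p6) held 8 of the 10 genes, with 2 start sites for Me1, and Scd1 and Scd2 are not in it. The start sites of Acaca, Acacb and the 2nd of Me1 lie 65.8, 19.0 and 8.7 kilobases inside the annotated gene, so these windows may not be the main promoters. The 250 bases before each start were searched on both strands for CACGTG (E-box), CCAAT (NF-Y box), GGGCGG (GC box) and TCACNCCAC (core of a sterol regulatory element). The E-box was found in 1 of the 8 genes (Slc25a1), and in 6.86% of all 27025 genes of the table. The NF-Y box was found in 5 of 8 (Slc25a1, Acss2, Acacb, Fasn and Me1), against 37.5% of all genes. The boxes of Acacb and Me1 were at the internal start sites, and the other start site of Me1 had none. The GC box was found in 4 of 8 (Slc25a1, Acly, Acss2 and Me1), against 35.4% of all genes, and the sterol core in 0 of 8, against 1.22%. A match is a description of letters and not a binding site, and no match says only that these letters are not in this window.

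The promoters of the carrier and of Acly and Fasn, which act after it, are printed to show how they differ, 5′ to 3′ on the strand of the gene, from RefSeq with GRCm38.p6 coordinates. That of Slc25a1 is chr16:17928220-17928469, minus strand, that of Acly chr11:100528001-100528250, minus strand, and that of Fasn chr11:120824548-120824797, minus strand. Capitals mark the motif matches on either strand.
Slc25a1: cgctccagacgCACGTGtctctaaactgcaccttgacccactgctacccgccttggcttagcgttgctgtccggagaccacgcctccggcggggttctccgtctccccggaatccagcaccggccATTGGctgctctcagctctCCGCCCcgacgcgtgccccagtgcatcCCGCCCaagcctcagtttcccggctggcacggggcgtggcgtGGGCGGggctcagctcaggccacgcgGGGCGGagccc
Acly: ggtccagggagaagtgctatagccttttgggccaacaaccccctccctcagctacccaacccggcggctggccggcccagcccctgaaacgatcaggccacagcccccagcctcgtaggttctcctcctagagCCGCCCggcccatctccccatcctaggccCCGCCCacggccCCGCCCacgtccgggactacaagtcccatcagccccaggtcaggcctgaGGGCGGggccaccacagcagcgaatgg
Fasn: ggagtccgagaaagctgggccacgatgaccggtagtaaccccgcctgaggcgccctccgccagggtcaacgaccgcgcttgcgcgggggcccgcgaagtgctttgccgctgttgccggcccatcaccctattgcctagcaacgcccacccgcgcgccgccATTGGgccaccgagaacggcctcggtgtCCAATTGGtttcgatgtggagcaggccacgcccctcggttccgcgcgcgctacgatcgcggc
Slc25a1 held 3 of the 4 motifs, with the E-box 239 bases before the start, the NF-Y box at 125 and GC boxes at 106, 79, 37 and 11. Acly held the GC box alone, 117, 88, 76 and 27 bases before the start. Fasn held the NF-Y box alone, 90, 62 and 59 bases before the start, the last pair overlapping on opposite strands. Acacb, like Slc25a1 without a call, held the NF-Y box alone, 87 bases before its internal start site.

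The study's own qPCR primers for 3 of the genes show which part of each transcript that assay reads, beside the whole-gene counts given here. The capitals mark the whole primer, forward and then reverse, each of 20 bases and written 5′ to 3′.
Acaca forward: CCGAGAAAGCAGGGGATCTG
Acaca reverse: TACCCGACGCATGGTTTTCA
Acly forward: GCTGTGCAGGGCATGCTGGA
Acly reverse: CCATGGCAGCCACTGAGGGC
Fasn forward: CACTGCATTGACGGCCGGGT
Fasn reverse: GGACAAGCCCAGGCTGCGAG
The Acaca pair matched 2 of 9 annotated transcripts, at bases 6834 to 6924 of the 9513-base transcript. The Acly pair matched 4 of 7, at bases 1751 to 1817 of 4426, and the Fasn pair 2 of 6, at bases 3159 to 3245 of 10050. For each of the 3 pairs, 0 other annotated genes held both primers.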

How the data were processed

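RNA-seq counts per gene were used as deposited. According to the study's methods and the submitters' processing notes, the authors trimmed reads with fastp, aligned them to mm10 with Bowtie2 2.0.0.5 and TopHat2 2.0.0, assembled transcripts with StringTie 2.2.0, merged the assemblies with Cuffmerge, took gene counts from the merged file and compared groups with DESeq2. The tool that counted, its strand setting and its treatment of multi-mapping reads were not given in the sources used here. Gene names came from GENCODE M21 (43 identifiers unmatched, Hsd17b8 listed as H2-Ke6). Groups came from the labels. Counts were filtered with filterByExpr, scaled by TMM and compared with the quasi-likelihood test of edgeR 4.0.16 in R 4.3.3, 2-sided, with Benjamini-Hochberg adjustment over all genes tested and no covariate, and DESeq2 1.42.0 was an alternative. The code was tested on simulated data. Alternatives changed the scaling, the filter, the thresholds or the tool, added a replicate block, removed trends on length or GC content (lowess, span 0.3), left out mitochondrially encoded and haemoglobin genes, or left out 1 library. The members, gene lists and marker lists were chosen with earlier results of these data known. Named were all 10 members, the 4 Y-linked genes and, in each of the 8 pathway lists, its most abundant gene per kilobase, up to 4 called genes with the largest fold change and genes at 0. The rule did not list the cell markers, of which the most abundant are named, and others only where said to be chosen after their values were seen. Intervals and floors cover counting error only. Length was that of merged exons unless stated.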

Additional observations from a re-analysis of the deposited data

How the results depend on the processing

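The 2 libraries per group leave little information on spread, and leaving out 1 leaves 1 residual degree of freedom, with the lone library assumed to vary like the other group. The fits with longest transcripts, DESeq2 with the study's thresholds, and the other scalings of the spread, were chosen after seeing the data. Values under 19 alternatives were taken for 35 genes, the 10 members and the tested genes named by rule in the 8 pathway lists. That rule favours genes called in the main fit, so more calls could be lost than gained. Of these 665 values, 506 kept direction and side of the threshold, 120 lost the call, 5 gained it and 34 turned sign. The cause was not tested.

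Genes called higher (2001) were 1278 with the length trend removed, 1092 with the GC trend, 709 with both, 941 with both and a replicate block, 1150 with the longest-transcript trend, 504 with that and GC, 1280 by DESeq2, and 1207 to 2225 leaving out 1 library. Genes called lower (1379) were 859 with library size only, 768 with length and GC removed, 537 with longest transcript and GC removed, 797 with the study's thresholds by edgeR and 760 by DESeq2, and 485 to 1700 leaving out 1 library. With library size only, 72.3% of calls were higher, against 59.2% with TMM and 48.0% with both trends removed.

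Members called higher (8) were 5 with the length or the longest-transcript trend removed, 4 with length and GC or longest transcript and GC removed, 3 by DESeq2, and 4 to 8 leaving out 1 library, and with a replicate block beside both trends they were 7. Pathway genes called higher (12) were 5 with GC removed, 6 with length and GC, 5 with longest transcript and GC, 10 with length and GC and a replicate block, and 6 to 14 leaving out 1 library. Pathway genes called lower (13) were 7 with GC removed, 6 with length and GC, with or without the block, 5 with longest transcript and GC, 6 with the study's thresholds by edgeR or DESeq2, and 4 to 15 leaving out 1 library. The members' median log2 fold change (0.61) was 0.39 to 0.87 leaving out 1 library, and their median spread between the fructose libraries (0.41) was 0.37 with library size only.

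Log2 fold changes that turned sign were as follows. Slc25a1 (-0.032) was 0.026 with library size only, 0.13 with length removed, 0.16 with GC, 0.26 with both, with or without the block, 0.15 with longest transcript, 0.29 with longest transcript and GC, and -0.21 to 0.16 leaving out 1 library. Acaca (0.51) was -0.0086 with length removed. Acacb (0.17) was -0.11 with length removed, -0.28 with longest transcript and -0.058 with longest transcript and GC. Pgd (0.076) was -0.051 with length removed, -0.041 with both, -0.051 with both and the block, and -0.10 to 0.24 leaving out 1 library. Prkaa1 (0.44) was -0.069 with GC removed and -0.081 with longest transcript and GC. Thrsp (0.0085) was -0.0018 with DESeq2 size factors, -0.0062 by DESeq2 at either threshold and -0.15 to 0.16 leaving out 1 library. Hsd17b12 (0.020) was -0.18 with GC removed, -0.0056 with both, -0.0060 with both and the block, and -0.053 to 0.096 leaving out 1 library. Acsl1 (0.20) was -0.12 with length removed, -0.023 with GC, -0.18 with both, with or without the block, -0.043 with longest transcript and -0.15 with longest transcript and GC.

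The groups share replicate numbers, but the deviations of same-numbered libraries correlated at -0.027 over 2 pairs, so the numbers were not taken to pair the libraries. With a replicate block, the genes called went from 2001 to 2117 higher and from 1379 to 1441 lower.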
